A study of Homo sapiens with 6 samples.

Results

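FGFR3, FGFR4, FGF2, MET and ETV4 are 5 of the 770 genes measured on a tumor progression panel in NIH:OVCAR-3 cells, an established human ovarian cancer line. They were chosen by name as growth factor receptors, a ligand and a transcription factor downstream of such receptors, and the choice was made with their values at both culture densities known. The comparison by density is therefore given for these 5 genes as a description, with no p-value or call. All 5 were higher in sparse than in crowded cells, by 2.06-fold for FGFR4, 2.08-fold for MET, 2.20-fold for FGF2, 2.84-fold for FGFR3 and 3.90-fold for ETV4 in the ratio of group means.

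The fibroblast growth factor (FGF) receptors and MET, the receptor of hepatocyte growth factor (HGF), are receptor tyrosine kinases. Ligand brings receptor molecules together, they phosphorylate each other, and adaptor proteins pass the signal to the RAS-ERK and PI3K-AKT kinase cascades. Many FGFs, FGF2 among them, need heparan sulfate as a co-factor on the cell surface. ETV4, also named PEA3, is an ETS family transcription factor, and in many epithelial cells its RNA is a readout of FGF receptor and ERK activity. In ovarian carcinoma, MET and FGF receptors are studied for their roles in survival, migration and peritoneal spread.

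The assay was the nCounter PanCancer Progression Panel, in which each captured RNA molecule is counted through a fluorescent barcode without amplification. Cells at low density (3 samples) are compared with cells at high density (3 samples), and a medium density was not analysed here. Both groups were NIH:OVCAR-3 cells kept for 1 week in RPMI medium with 20% fetal bovine serum and added insulin, and they differed by how many cells were seeded per well. Only 1 cell line was used, and 100 ng of total RNA entered each reaction. Replicates carried the numbers 1 to 3 in each group, but the sources do not say whether they were separate cultures. All p-values thus rest on the spread among these 6 samples alone, which may be technical.

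Values were normalized counts, that is barcode counts multiplied by 1 factor per sample that set the geometric mean of 30 reference genes to between 383.27 and 383.28. Totals per sample were 554859 to 696309 recovered counts over all genes. A background limit, the mean plus 2 SD of the 8 negative control probes, averaged 14.3 at low density and 15.7 at high density in normalized counts. In this bulk assay, fewer cells expressing a gene and less RNA per cell could not be told apart. All 8 epithelial markers on the panel were above the floor for testing (a mean of 20), and 7 of them fell at low density, by 0.18 (CD24) to 0.97 (KRT19) on the scale of log2(value + 1). EPCAM did not pass (−0.05 ± 0.04, limma adjusted p = 0.279). The sum of the 8 ranged from 39178 to 40552 at low density and from 49509 to 50629 at high density. Markers of other cell types were mostly under the floor: 8 of 10 for fibroblasts, 6 of 8 for endothelial cells and 2 of 3 for leukocytes. Among those under the floor, DCN, LUM and PTPRC had group means of at most 10.5, under the background limit. FAP (19.8) and PECAM1 (18.0) lay above it at high density. Over the floor were the fibroblast markers COL1A1 (35.6 at low and 23.6 at high density) and FBN1 (18.0 and 29.9). The endothelial markers KDR (26.9 and 38.4) and EGFL7 (97.1 and 101.7) and the leukocyte marker CXCR4 (46.6 and 55.1) were also over it. The summed fibroblast markers ranged from 114 to 136 in low and 118 to 139 in high density samples, the endothelial sum from 154 to 182 in low and 186 to 206 in high density samples, and the leukocyte sum from 46.7 to 63.9 in low and 59.7 to 77.4 in high density samples. Their part in the differences below was not tested.

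The genes lie on 4 chromosomes of GRCh38.p14: FGFR3 at chr4:1793293-1808867, FGF2 at chr4:122826682-122898236, FGFR4 at chr5:177086915-177098144, MET at chr7:116672196-116798377 and ETV4 at chr17:43527846-43546340. The probe positions within the transcripts are not given in the sources used here, so splice forms, such as the receptor isoforms that prefer different FGFs, could not be told apart.

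The sequence just upstream of the starts of the genes is shown as a description. Since the genes were chosen with their values known, their shared direction gives no reason to expect shared sequence. The RefSeq promoter table of GRCh38.p14 matched 4 of the 5 genes, FGFR3, FGFR4, FGF2 and MET. FGFR4 had 2 windows there, of which the one at the annotated start of the gene is shown. Only bases before the annotated start of the gene are printed, 250 for 3 genes and 101 for FGF2, all on the plus strand, and capitals mark the GC box GGGCGG on either strand.
FGFR3, chr4:1793043-1793292: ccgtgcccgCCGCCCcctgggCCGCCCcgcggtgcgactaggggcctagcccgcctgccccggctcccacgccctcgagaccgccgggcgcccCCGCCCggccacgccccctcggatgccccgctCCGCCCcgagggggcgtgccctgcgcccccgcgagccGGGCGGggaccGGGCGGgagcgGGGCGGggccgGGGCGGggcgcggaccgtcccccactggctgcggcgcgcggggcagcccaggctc
FGFR4, chr5:177086665-177086914: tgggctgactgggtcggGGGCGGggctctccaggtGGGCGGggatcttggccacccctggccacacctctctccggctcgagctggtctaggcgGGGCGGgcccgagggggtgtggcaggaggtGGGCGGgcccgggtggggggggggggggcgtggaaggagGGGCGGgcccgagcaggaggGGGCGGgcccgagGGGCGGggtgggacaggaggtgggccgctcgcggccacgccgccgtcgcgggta
FGF2, chr4:122826581-122826681: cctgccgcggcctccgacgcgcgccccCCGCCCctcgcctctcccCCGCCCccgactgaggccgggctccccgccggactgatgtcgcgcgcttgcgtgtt
MET, chr7:116671946-116672195: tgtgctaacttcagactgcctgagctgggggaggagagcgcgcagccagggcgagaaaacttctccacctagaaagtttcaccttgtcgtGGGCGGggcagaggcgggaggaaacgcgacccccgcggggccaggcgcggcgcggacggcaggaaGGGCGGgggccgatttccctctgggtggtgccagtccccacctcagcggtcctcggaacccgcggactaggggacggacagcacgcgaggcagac

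All 4 printed windows were rich in G and C, at 86.8% for FGFR3, 79.6% for FGFR4, 80.2% for FGF2 and 68.4% for MET. The median over all 35116 windows of the table was 58.0% for 250 bases and 55.4% for 101 bases. All 101-base values here use the first 101 bases of every window, wherever its gene is annotated to start. The FGF2 stretch is likewise the first 101 bases of its window, which runs on into the annotated gene. The GC box, which is bound by SP1 and related factors, was found 8 times in FGFR3, 7 times in FGFR4, and 2 times each in FGF2 and MET. Of all 250-base windows, 42.6% held at least 1 GC box, 24.3% at least 2 and 1.12% at least 7. Of all 101-base windows, 17.5% held at least 1 and 5.0% at least 2. The motif AGGAAG, named for PEA3, was found once in the printed windows, on either strand, in MET, where its last base was the first of the second GC box. The other FGFR4 window, before a later start within the gene (chr5:177089300-177089549), held AGGAAG 2 times and none of the other motifs, at 57.2% G and C. AGGAAG was present in 28.7% of all 250-base windows and 12.1% of all 101-base windows. The AP-1 site TGANTCA and the TEAD site GGAATG were found in none of the 4 printed windows. They were present in 6.6% and 11.9% of all 250-base windows, and in 2.5% and 5.1% of all 101-base windows. No other matches in the printed windows overlapped. These are matches of letters in short windows, and no binding was measured. The shares are over windows of any G and C content, so GC boxes were not compared at like content.

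The ligand FGF2, or basic FGF, binds several FGF receptors and is stored on heparan sulfate. Its normalized counts were 161, 163 and 143 in low density replicates 1 to 3, against 72.7, 77.4 and 62.2 in high density replicates 1 to 3. The lowest low density sample stood 65.3 counts above the highest high density sample, and the groups did not overlap. The low density mean was 156 ± 11.3 and the high density mean 70.8 ± 7.82 (SD, n = 3 each). On the scale of log2(value + 1), used for all differences below, FGF2 was 1.13 ± 0.12 (SE) higher at low density. The SE of each difference is from the limma fit, which shares spread across genes, and is not that of the gene's replicates alone.

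FGFR3, one of the FGF receptors, had 101, 99.1 and 130 normalized counts in low density samples, against 34.9, 38.7 and 42.7 in high density samples. Low density replicate 3 was the highest sample, and even the lowest low density sample was 2.32-fold above the highest high density sample. The means were 109.9 ± 17.1 and 38.8 ± 3.9 (SD, n = 3 each), a difference of 1.47 ± 0.15. FGFR3 had the largest relative spread of the 5 genes at low density, with a coefficient of variation of 15.5%.

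FGFR4, the FGF receptor best known as the receptor of FGF19 in liver, was steadier at low density. It had 158, 148 and 157 normalized counts at low density, a coefficient of variation of 3.54%, and 77.7, 81.6 and 65.8 at high density. Every low density sample was above every high density sample, the nearest pair being 1.82-fold apart. Means were 154 ± 5.46 and 75.05 ± 8.23 (SD, n = 3 each), and the difference was 1.04 ± 0.12.

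MET had 132, 139 and 148 normalized counts in low density samples, against 67.7, 61.7 and 71.9 in high density samples. The groups lay apart, with the nearest samples separated by 60.2 counts. Means were 139.9 ± 8.17 at low and 67.1 ± 5.12 at high density (SD, n = 3 each), and the difference was 1.05 ± 0.13.

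ETV4 showed the widest separation of the 5 genes. Its normalized counts were 138, 116 and 152 in low density samples, against 34.9, 31.4 and 37.8 in high density samples. Low density replicate 2 was the lowest of its group and still 3.07-fold above the highest high density sample. Means were 135 ± 18.2 and 34.7 ± 3.20 (SD, n = 3 each), and the difference was 1.93 ± 0.15.

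**Figure D1:**
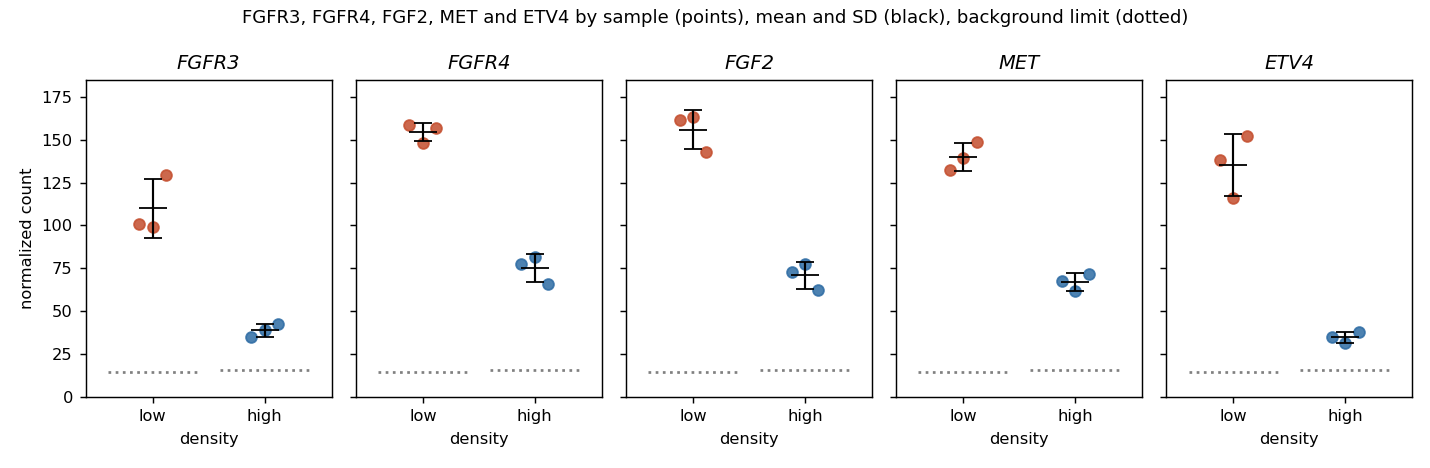
Normalized counts of FGFR3, FGFR4, FGF2, MET and ETV4 (vertical axis, from 0) in the 3 low density samples (red, left) and the 3 high density samples (blue, right), with mean and SD in black and the background limit of each group dotted (14.3 at low and 15.7 at high density). In each gene all low density points lie above all high density points, and all points lie above the limit.

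The counts behind these values were small. Recovered barcode counts of the 5 genes ranged from 30 (ETV4, high density replicate 2) to 183 (FGF2, low density replicate 2). The sample nearest to its own background limit was 1.73-fold above it for ETV4, 2.11-fold for FGFR3, 3.41-fold for MET, 4.28-fold for FGF2 and 4.51-fold for FGFR4. The background therefore made up more of the high density values of ETV4 and FGFR3 than of the other genes. With the mean of the negative controls subtracted, their differences were 2.27 and 1.74. The spread between replicates, a measure that does not use the comparison of densities, was close to that of counting. The variance within groups divided by that expected from counting alone was 1.6 for FGFR3, 1.47 for ETV4, 0.816 for FGF2, 0.494 for FGFR4 and 0.425 for MET, against a median of 1.24 and quartiles of 0.623 and 2.05 over the 480 genes tested.

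Against the whole panel, 480 genes other than the reference genes had a mean of at least 20 and were tested with limma, and all 5 genes were among them. Of the 480 genes 38.8% rose, 27.5% fell and 66.2% changed in either direction at an adjusted p under 0.05. All 5 genes had no overlap between groups with the low density samples on top, which held for 38.8% of all genes, while the reverse order held for 27.3%. A difference of at least 1 was reached by all 5 and by 31 genes in all, or 6.46%. Since the genes were chosen on this contrast, nothing is read from these counts. In the order of differences from the top, ETV4 stood at place 2 of 480, FGFR3 at 10, FGF2 at 25, MET at 28 and FGFR4 at 30. The median difference was 1.13 over the 5 genes and 0.04 over all tested.

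**Figure D2:**
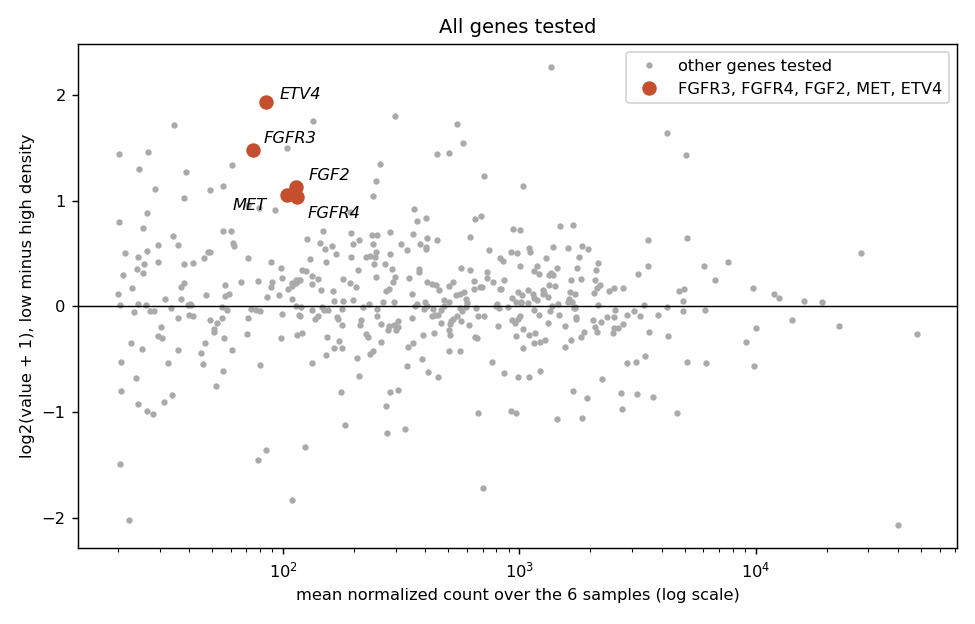
Difference between low and high density on the log2(value + 1) scale (vertical axis, low minus high) against the mean normalized count over the 6 samples (horizontal axis, log scale) for 480 genes tested (grey) and for FGFR3, FGFR4, FGF2, MET and ETV4 (red). The 5 genes lie between 1.04 and 1.93, at low to middle counts, where other genes reach similar differences in both directions.

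Of the 4 FGF receptors on the panel, the other 2 showed smaller differences. FGFR1 had 885, 841 and 906 normalized counts in low density samples, against 1099, 1030 and 1058 in high density samples. It fell at low density by 0.28 ± 0.05 (limma adjusted p = 9.41e-08), and the fall no longer passed after positive control scaling (−0.13, adjusted p = 0.0737). FGFR2 had 381, 363 and 380 in low density samples, against 324, 311 and 297 in high density samples. It rose by 0.27 ± 0.07 (adjusted p = 4.64e-04), a call lost under quantile normalization (0.12, adjusted p = 0.104). Ratios of probes within a sample do not depend on a scaling by 1 factor per sample, but quantile normalization and background subtraction can move them. The log2 ratio of FGFR3 to FGFR1 was 1.77 higher at low density (SD of the ratio 0.18 in each group), and that of FGFR4 to FGFR1 was 1.32 higher (SD 0.02 at low and 0.17 at high density). FGFR3 to FGFR2 was 1.23 higher and FGFR4 to FGFR2 0.78 higher. Between the 2 receptors described here, FGFR3 to FGFR4 was 0.45 higher at low density, with SDs of 0.20 and 0.29, and the single values overlapped.

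Besides FGF2, only FGF9 and FGF18 were on the panel among 22 FGF ligands written down. FGF18, a ligand with roles in bone and cartilage, averaged 487 ± 20.9 in low and 538 ± 47.7 in high density samples, a fall of 0.14 ± 0.06 (adjusted p = 0.0371) with overlapping groups. Without low density replicate 2 the adjusted p was 0.133, without low density replicate 3 it was 0.107, and without high density replicates 2 and 3 it was 0.259 and 0.132. It was also lost by the methods' t-test (0.230), without a mean trend (0.158) and with no filter (0.0662), and the value was 0.01 after positive control scaling. FGF9, at 57.1 ± 7.74 in low and 58.3 ± 5.37 in high density samples, did not pass (−0.03 ± 0.16, adjusted p = 0.874). The log2 ratio of FGF2 to FGF18 was 1.28 higher at low density.

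Heparan sulfate holds many FGFs at the cell surface. Genes of its carriers and enzymes moved in both directions: among 6 tested genes there were 2 rises, 2 falls and 2 that missed the threshold (median 0.12). HPSE, the heparanase that cleaves heparan sulfate, had 645, 668 and 656 normalized counts in low density samples, against 244, 226 and 256 in high density samples, a rise of 1.44 ± 0.07 (adjusted p = 1.90e-68). The proteoglycan gene AGRN rose by 0.20 ± 0.04 (adjusted p = 1.42e-06). SDC4, a syndecan, fell by 0.16 ± 0.04 (adjusted p = 5.12e-05), a call lost under quantile normalization (−0.02, adjusted p = 0.351) and after positive control scaling (−0.02, adjusted p = 0.805). COL18A1, the other fall (−0.10 ± 0.04, adjusted p = 0.0193), was 0.05 after positive control scaling, and lost its call under quantile normalization (adjusted p = 0.189), without a mean trend (0.0950), by the methods' t-test (0.0609), and when low density replicate 2 (0.0654) or high density replicate 2 (0.104) was left out. HSPG2 (0.06 ± 0.09) and SULF1 (0.17 ± 0.24) did not pass.

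For MET, its ligand HGF was at background in both groups, at 6.57 ± 1.21 in low and 4.67 ± 3.31 in high density samples (SD, n = 3 each), and was not tested. Of 7 other tested genes written down for the HGF-MET axis, 3 rose, 1 fell and 3 did not pass (median 0.18). The rises were small. ITGA6 and ITGB4, the chains of an integrin that is reported to work with MET, rose by 0.32 ± 0.07 and 0.26 ± 0.10 (adjusted p = 1.44e-05 and 0.0124). ST14, the protease matriptase that can activate HGF, rose by 0.13 ± 0.05 (adjusted p = 0.00990). Under quantile normalization none of these rises passed (adjusted p = 0.107 for ITGA6, 0.0540 for ITGB4 and 0.154 for ST14), and under median-of-ratios scaling those of ITGB4 (0.0507) and ST14 (0.169) did not. The call of ITGB4 was also lost without low density replicate 3 (0.0774) and that of ST14 without low density replicate 1 (0.0810).

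NRP1, a co-receptor for several growth factors, was the gene that fell, with 14.6, 5.36 and 12.2 normalized counts in low density samples, against 33.9, 33.5 and 23.2 in high density samples. The low density mean lay under the background limit, so NRP1 was at least 2.11-fold lower at low density (adjusted p = 1.31e-07). NRP2, its relative, averaged 94.8 ± 9.11 in low and 83.5 ± 5.15 in high density samples, which did not pass (0.18 ± 0.13, adjusted p = 0.225), except after positive control scaling (0.32, adjusted p = 0.0260). SPINT1, which encodes an inhibitor of HGF-activating proteases, did not pass (−0.08 ± 0.04, adjusted p = 0.103), but it fell under median-of-ratios scaling (adjusted p = 0.00131), under quantile normalization (0.00783) and without high density replicate 3 (0.0452). CD44, a surface glycoprotein reported to present HGF to MET, did not pass (0.36 ± 0.24, adjusted p = 0.172), and passed without low density replicate 2 (0.63, adjusted p = 0.0124). It averaged 27.6 ± 8.81 in low and 20.6 ± 1.53 in high density samples, near the background limits of 14.3 and 15.7. The missing call therefore does not show that CD44 was unchanged.

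**Figure D3:**
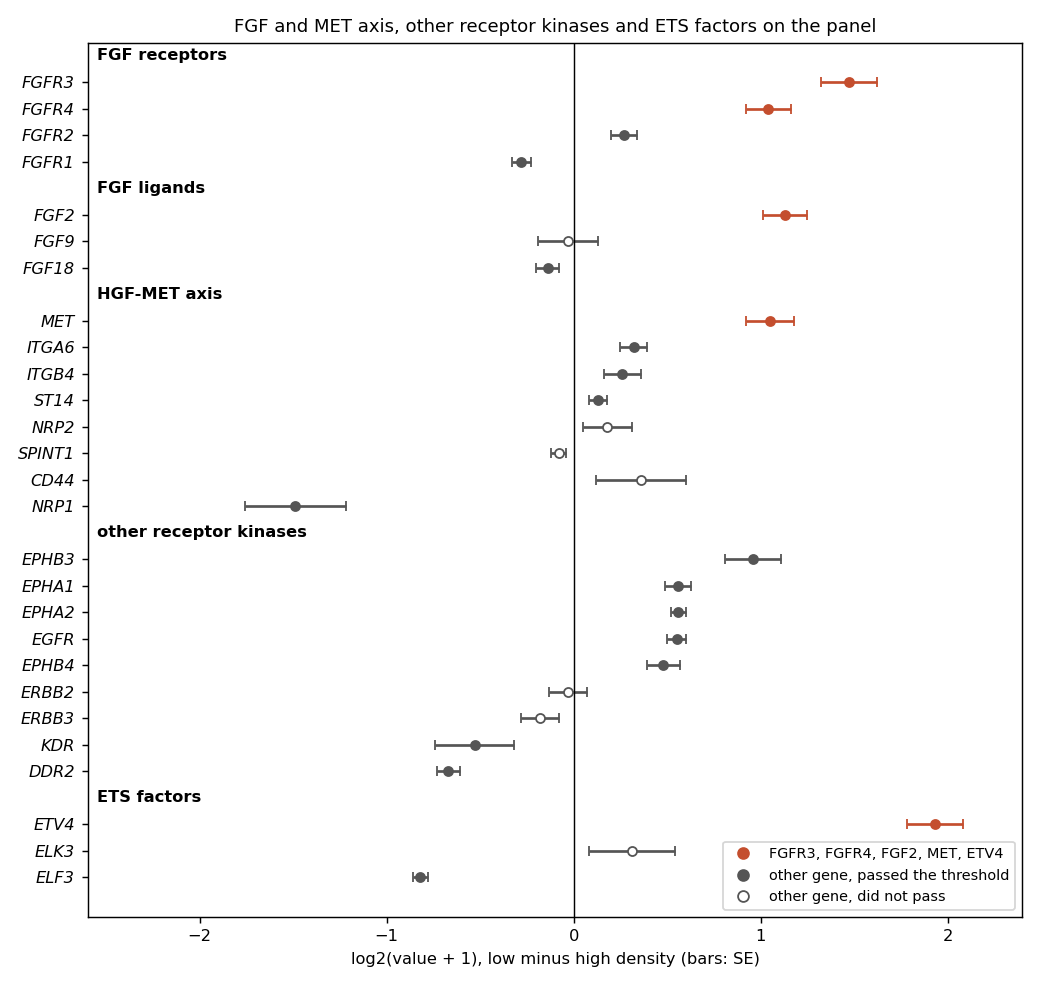
Difference between low and high density on the log2(value + 1) scale (horizontal axis, low minus high, bars SE) for tested genes of the FGF receptors, FGF ligands, HGF-MET axis, other receptor tyrosine kinases and ETS factors. FGFR3, FGFR4, FGF2, MET and ETV4 are red, filled grey points passed the threshold and open points did not. Of the genes that passed, FGFR1, FGF18, NRP1, KDR, DDR2 and ELF3 lie to the left of 0.

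Of 16 other receptor tyrosine kinases on the panel, 9 were tested, with 5 rises, 2 falls and 2 that missed the threshold (median 0.48, against 0.04 over all genes tested). EPHB3, a receptor of ephrins, had 87.4, 94.7 and 101 normalized counts in low density samples, against 44.8, 49.2 and 49.98 in high density samples, a rise of 0.96 ± 0.15 (adjusted p = 8.07e-10). The ephrin receptors EPHA1 and EPHA2 rose by 0.56 each, with SEs of 0.07 and 0.04. EGFR, the receptor of epidermal growth factor, rose by 0.55 ± 0.05 to 1303 ± 44.6 at low density, against 891 ± 41.4 at high density (adjusted p = 2.07e-26). The log2 ratio of MET to EGFR was 0.51 higher at low density. DDR2, a collagen receptor, fell by 0.67 ± 0.06 (adjusted p = 1.36e-21). KDR, a receptor of VEGF, fell by 0.53 ± 0.21 (adjusted p = 0.0172), a call lost when low density replicate 2 (0.190) or high density replicate 1 (0.0948) was left out, after positive control scaling (0.0907), without a mean trend (0.0536) and by the methods' t-test (0.133). ERBB2 did not pass in any setting (−0.03 ± 0.10, adjusted p = 0.812). ERBB3 (−0.18 ± 0.10, adjusted p = 0.101) passed as a fall under median-of-ratios scaling (0.0244), under quantile normalization (0.0260) and without high density replicate 3 (0.0166).

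Ligands of these other receptors split, with 3 rises, 2 falls and 2 that did not pass among 7 tested. AREG, a ligand of EGFR, had 147, 156 and 169 normalized counts in low density samples, against 71.7, 75.3 and 64.6 in high density samples, and rose by 1.15 ± 0.12 (adjusted p = 1.60e-18). PDGFC (0.27 ± 0.05) and VEGFB (0.24 ± 0.05) rose, and neither rise passed under quantile normalization (adjusted p = 0.0609 and 0.155). VEGFA fell by 0.99 ± 0.05 (adjusted p = 1.11e-60), and ANGPT1, a ligand of the TEK receptor, fell by 0.44 ± 0.18 (adjusted p = 0.0219). The fall of ANGPT1 was lost without low density replicate 3 (0.0674), without high density replicate 1 (0.0603) or 3 (0.0652), after positive control scaling (0.135) and with background subtraction (0.0512). PDGFA and VEGFC did not pass.

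Downstream of the receptors, 24 adaptors and kinases of the RAS-ERK and PI3K-AKT cascades were tested, with 11 rises, 6 falls and 7 that missed the threshold (median −0.01). The balance turned to 8 rises and 10 falls both with median-of-ratios scaling and with quantile normalization. PLCG1, a phospholipase bound directly by activated FGF receptors, had 475, 465 and 464 normalized counts in low density samples, against 242, 235 and 263 in high density samples, with a rise of 0.92 ± 0.07 (adjusted p = 7.09e-31). PIK3CD, a catalytic subunit of PI3K, rose by 0.50 ± 0.10 and MAPK3, which encodes ERK1, by 0.38 ± 0.05. In the other direction, PIK3CG, another catalytic subunit of PI3K, was at least 2.54-fold lower at low density, where its mean of 8.35 lay under the background limit (36.4 at high density, adjusted p = 5.51e-13). The regulatory subunit gene PIK3R1 fell by 0.79 ± 0.08, RRAS by 0.56 ± 0.14 and STAT3 by 0.32 ± 0.05. AKT2, NF1 and MTOR did not pass. AKT2 and MTOR fell under median-of-ratios scaling (adjusted p = 0.00177 and 0.0212) and under quantile normalization (2.65e-04 and 0.0258), and NF1 passed as a rise after positive control scaling (0.14, adjusted p = 0.0354).

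Genes known to respond to ERK formed another list. The usual feedback inhibitors of the DUSP, SPRY and SPRED families, written down for this list, were not on the panel. Of 8 tested members other than ETV4, 6 rose and 2 fell (median 0.86), beside 38.8% that rose and 27.5% that fell among all 480 genes (median 0.04), with no test of the list. PLAU, the urokinase plasminogen activator, had 441, 441 and 504 normalized counts in low density samples, against 114, 147 and 137 in high density samples, a rise of 1.80 ± 0.08 (adjusted p = 1.34e-69). ID1, which also responds to BMP signaling, rose by 1.63 ± 0.04, and AREG is described above. The immediate early gene JUN fell by 0.53 ± 0.05 (adjusted p = 3.19e-20) to 626 ± 19.4 at low density, against 902 ± 34.1 at high density, and MYC fell by 0.50 ± 0.07 (adjusted p = 1.89e-11). The list thus held members that moved in opposite directions.

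Among ETS factors, 5 were on the panel and 3 were tested. ELF3, an epithelial ETS factor, had 2012, 1886 and 1966 normalized counts in low density samples, against 3547, 3414 and 3389 in high density samples. It fell by 0.82 ± 0.04 (adjusted p = 4.87e-69), opposite to ETV4. ELK3, at 28.0 ± 0.286 in low and 23.2 ± 8.50 in high density samples, did not pass (0.31 ± 0.23, adjusted p = 0.220), except without high density replicate 3 (0.58, adjusted p = 0.0344). FLI1 and SPDEF were under the floor, FLI1 with means of 19.6 in low and 12.7 in high density samples and SPDEF with 20.9 in low and 13.4 in high density samples. ETV1 and ETV5, the closest relatives of ETV4, were not on the panel.

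Of 12 panel genes often named as targets of ETV4 or its relatives in other cells, 7 were tested, with 4 rises, 1 fall and 2 that missed the threshold (median 0.33). Among all 480 genes 38.8% rose and 27.5% fell (median 0.04), and whether the list as a whole follows ETV4 was not tested. Besides PLAU, at low density the metalloproteinase gene MMP2 was at least 1.91-fold higher and SPP1, which encodes osteopontin, at least 2.24-fold. Their high density means of 10.4 and 13.8 lay under the background limit (adjusted p = 2.19e-07 and 2.99e-07). ICAM1, an adhesion receptor, rose by 0.33 ± 0.11 (adjusted p = 0.00622), a call lost under quantile normalization (0.241), by the methods' t-test (0.0707) and without high density replicate 1 (0.0730). VIM, which encodes the intermediate filament vimentin, fell by 1.2 ± 0.08 (adjusted p = 8.46e-38). ERBB2 and CXCR4 did not pass, and 5 genes, MMP1, MMP3, MMP9, MMP14 and PTGS2, were under the floor.

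The genes whose pattern over the 6 samples was most like that of each of the 5 were found by the root mean square difference between profiles of log2(value + 1), centered on each gene's mean. A small value means that a gene differed between densities by the same amount and varied alike among replicates, and 6 samples in 2 groups make such likeness common. Nearest to ETV4 were the integrin gene ITGB3 (0.164), the protease inhibitor gene TIMP2 (0.179) and ID1 (0.180). ITGB3 had 55.4, 46.4 and 58.2 normalized counts in low density samples, against 13.95, 16.7 and 15.9 in high density samples. Its high density mean of 15.5 was under the background limit, which makes the low density level at least 3.39-fold higher. Nearest to FGFR3 were the laminin chain LAMA1 (0.094), the securin gene PTTG1 (0.115) and ID2 (0.123). Nearest to MET were CAV1, which encodes caveolin-1 (0.086), PLCG1 (0.090) and EPHB3 (0.091). Outside the 5 genes, AREG was nearest to FGFR4 (0.092), followed by CRISPLD2 (0.103) and the chemokine gene CX3CL1 (0.120). The matrix gene CCDC80 (0.119), AREG (0.120) and the co-chaperone gene BAG2 (0.142) were likewise nearest to FGF2. Within the 5, FGFR4 and FGF2 were the closest pair, at 0.093, and FGFR4 and ETV4 the farthest, at 0.484.

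The size of the differences moved with the scaling, and the direction did not. The other filters and tests leave the differences as they are, so only the remaining settings could move them. Over the other filters, pseudocount, scalings, background subtraction and tests, the difference ranged from 1.29 to 1.74 for FGFR3, from 0.82 to 1.18 for FGFR4, from 0.89 to 1.28 for FGF2, from 0.86 to 1.2 for MET and from 1.70 to 2.27 for ETV4. Scaling to the positive controls moved the median of all genes tested by 0.15, to 0.19, and the differences of the 5 genes by about as much. Leaving out each sample in turn gave 1.35 to 1.54 for FGFR3, 0.95 to 1.10 for FGFR4, 1.04 to 1.2 for FGF2, 0.99 to 1.10 for MET and 1.84 to 2.04 for ETV4.

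**Figure D4:**
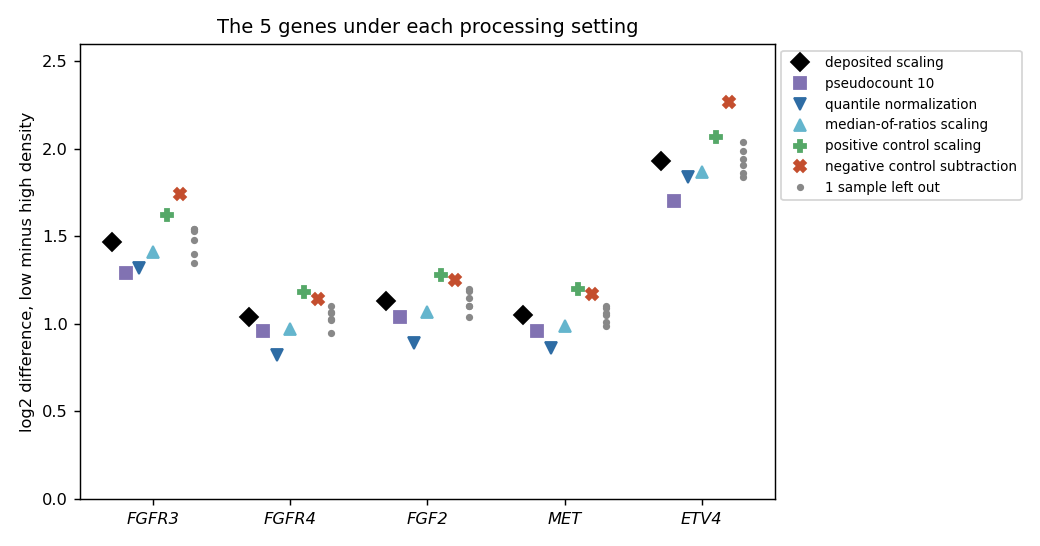
Difference between low and high density in log2 units (vertical axis, from 0) for FGFR3, FGFR4, FGF2, MET and ETV4 under the deposited scaling, 5 other settings and with 1 sample left out at a time (grey points). Every value lies above 0, and ETV4 stays highest in each setting.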

How the data were processed

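RNA of 6 samples, 3 low density and 3 high density, was read with the nCounter panel. The authors deposited 1 table of 784 probes: 770 genes (30 of them reference genes), 8 negative and 6 positive controls. Gene values were a deposited signal, barcode counts times 1 factor per sample. The factor was worked out here from the reference genes, and the software is not given in the sources used here. Control probes were unscaled whole counts and no background was subtracted. Under 100, 98.9% to 100% of values were whole multiples of a step (tolerance 0.1 count), from which counts were recovered for depth, background and positive control scaling. Symbols matched RefSeq GRCh38.p14 (755 current, 15 older).

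Genes with a mean of at least 20, without reference genes, were tested (480 of 740) as log2(value + 1), which understates the change of low genes, in limma version 3.58.1 (R 4.3.3): linear model on density, empirical Bayes with mean trend, two-sided, Benjamini-Hochberg adjustment over the 480 genes, threshold 0.05. The fit borrowed spread across genes (457 prior degrees of freedom), whereas a permutation test of 3 against 3 cannot go below p = 0.1. A ratio against a group mean under the background limit was given as a lower bound, the other mean over that limit.

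The genes and lists were chosen with earlier results of these data known. Named were the 5 genes, per list up to 4 per direction with the largest difference and up to 3 that did not pass with the highest mean, and the 3 nearest profiles of each gene. HGF, FLI1, SPDEF, the 5 reported ETV4 targets under the floor and single markers were named after their values were seen. One gene that this rule names is not reported here. Alternatives were filters, pseudocount, scalings, background subtraction, moderation, the methods' t-test, a replicate block and leaving out each sample. Planned count tests were not run, because the step of high density replicate 1 (0.9962) was too near 1 to be told from rounding. Python 3.11.15 and matplotlib 3.10.9 were used for tables and figures.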

Additional observations from a re-analysis of the deposited data

How the results depend on the processing

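The count of changed genes was 318 (186 rose, 132 fell) and stayed between 264 (the methods' t-test with adjustment, 291 at an unadjusted p under 0.05) and 332 (no filter). Under median-of-ratios scaling 161 genes rose and 161 fell. Quantile normalization gave 145 rises and 148 falls, or 49.5% rises, and positive control scaling 240 and 76, or 75.9%, against 58.5%. Leaving out each sample gave 293 to 316 genes. The differences of the 5 genes kept their direction in all 16 settings. The filters, moderation, the methods' t-test and the replicate block could not change these differences, so only the other settings bear on the direction. Those that moved by more than 1 SD of replicates were, with a pseudocount of 10, FGFR3 (1.29) and ETV4 (1.70), under quantile normalization, FGFR4 (0.82), FGF2 (0.89) and MET (0.86), after positive control scaling, FGFR4 (1.18), FGF2 (1.28) and MET (1.2), and with background subtraction, FGFR3 (1.74), MET (1.17) and ETV4 (2.27).

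Counting FGF2 and MET in their lists, changed FGF ligands were 2, or 1 with no filter, without a mean trend, by the methods' t-test and after positive control scaling. Under quantile normalization, 3 HGF-MET genes (1 rose, 2 fell), 3 ligands of other receptors (1 rose, 2 fell) and 2 heparan sulfate genes changed, against 5, 5 and 4. After positive control scaling, 2 heparan sulfate genes changed. With a mean of at least 50, fewer genes were tested and 3 reported ETV4 targets changed, against 5. With no filter, more genes were tested and 7 of these targets changed (6 rose, 1 fell). Leaving out each sample gave 1 to 2 FGF ligands, 4 to 6 HGF-MET genes and 3 to 4 heparan sulfate genes. The median ratio of replicate variance to counting was 0.816 and ranged from 0.503 (without low density replicate 3) to 1.08. Among other named genes that passed in either setting, FGF18 (0.007), COL18A1 (0.048) and NF1 (0.137) changed sign after positive control scaling, as did AKT2, ERBB2, FGF9, MTOR, PDGFA, SPINT1 and VEGFC, which passed in neither. The causes were not tested.

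Replicate numbers did not pair the samples: deviations of same-numbered samples correlated at 0.12, −0.11 and −0.03, and 1 of 3 low density samples correlated best with its own number. With the replicate number as a block, 320 genes changed (188 rose, 132 fell). In this balanced design a block cannot change the differences of the 5 genes. Counts of 30 to 183 and the background limit restrict what can be seen in genes under the floor.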
